A study of Mus musculus with 16 samples.

Results

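The transcripts of sorted mouse muscle cells with and without p53 were compared in the 4 libraries that carry the suffix G2, of 16 in the series. The members were taken by their titles: p53WT_G2 replicates 1 and 2, and p53KO_G2 replicates 1 and 2. Genes entered when they reached 1 FPKM (a level of fragments corrected for transcript length and library size) in at least 2 of the 4 libraries, which left 11700 of 24341 listed. All 4 libraries came from hind limb muscles of C57BL/6 mice 2 to 3 months old, from cells sorted for CD34 and alpha-7 integrin and against CD31, CD11b, CD45 and Sca-1. The groups differ by the genotype label alone, p53 WT or p53KO. The labels do not spell out G2, do not say whether p53 is lost in the whole animal or in some cells, and give no other allele, although the series title names a severe Duchenne model. Nothing says that the replicates are separate animals, so each p-value measures the spread between these samples only. The other 12 libraries, 3 for each genotype with no suffix (hind limb) and 3 for each in 3dai (tibialis anterior), shared the estimate of the spread.

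p53, coded by Trp53, is a transcription factor that is kept low by the ubiquitin ligase Mdm2 and builds up after DNA damage and other stress. It binds a response element made of paired half-sites and turns on genes that stop the cell cycle, start cell death, repair DNA, change metabolism and limit p53 itself. Muscle stem cells, also called satellite cells, lie beside the muscle fibre, are marked by the transcription factor Pax7, and divide and fuse when muscle is repaired. Loss of p53 is a known feature of rhabdomyosarcoma, a tumour with traits of skeletal muscle.

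The sorted cells carried the markers of their label. Pax7 stood at 17.6 and 17.9 FPKM in p53WT_G2 and at 13.1 and 22.01 in p53KO_G2, and Myf5, a factor of the muscle lineage, at 64.8 and 51.1 against 62.2 and 61.1. Of the genes sorted against, Pecam1 (CD31) reached at most 1.72 FPKM, Itgam (CD11b) 0.286 and Ly6a (Sca-1) 3.58, and Ptprc (CD45) was listed at 0 in all 4. Cd34 stood at 27.1 and 27.5 in p53WT_G2 and at 58.9 and 28.9 in p53KO_G2. Between 11162 and 11574 genes reached 1 FPKM in a library, and the depth of sequencing is unknown.

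The p53KO_G2 libraries were less alike than the p53WT_G2 libraries. Over the 11700 genes log2(FPKM + 1) correlated at 0.944 within p53WT_G2 and at 0.909 within p53KO_G2. p53KO_G2 replicate 1 correlated with the p53WT_G2 libraries at 0.921 and 0.914, and replicate 2 at 0.938 and 0.9375, so each p53KO_G2 library was closer to both p53WT_G2 libraries than to its own replicate. Between the p53KO_G2 libraries 788 genes were at least 2-fold higher in replicate 1 and 1078 in replicate 2, against 357 and 484 within p53WT_G2. Results that rest on p53KO_G2 replicate 1 are therefore given for each p53KO_G2 library apart.

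Which transcripts differ between p53KO_G2 and p53WT_G2? Trp53 (chr11:69580359-69591873) fell with p53KO. It stood at 71.0 and 59.9 FPKM in p53WT_G2 and at 16.8 and 19.8 in p53KO_G2, and the groups do not overlap. The knockout mean was 28.0% of the wild-type mean (18.3 ± 2.17 against 65.4 ± 7.86, SD, n = 2 each), with a difference of -1.78 on the log2(FPKM + 1) scale, on which all differences here are given (SE 0.27, limma adjusted p = 0.0179). FPKM cover the full length of the gene, and the labels do not state what the knockout deletes.

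By limma's test 8 genes were called at an adjusted p under 0.05, which is 0.0684% of those tested, 3 higher and 5 lower with p53KO. The 5 lower genes (0.0427%) were Trp53, its target Ccng1, the cell cycle phosphatase Cdkn3, the small nucleolar RNA Snora33 and the chemokine Ccl19. The 3 higher genes were Cd7, Serpina3g and Art1. Apart from Trp53 and Ccng1, the called genes passed the FPKM filter only through the genotype where they were high. Snora33, Cd7 and Art1 were also listed at 0 in every library outside G2, which makes the pooled spread of these genes small. At an unadjusted p under 0.05 there were 599 genes, 231 higher and 368 lower (3.15% of those tested lower). The median difference of all genes tested was -0.01. The call of Trp53 needs the spread pooled over 16 libraries: it is lost with only the 4 G2 libraries in the fit (adjusted p = 0.316), with the 10 hind limb libraries (adjusted p = 0.092) and without any one of the 4. An exact permutation of 2 libraries against 2 cannot give a two-sided p below 0.333, so no single gene can pass by that test.

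**Figure D1:**
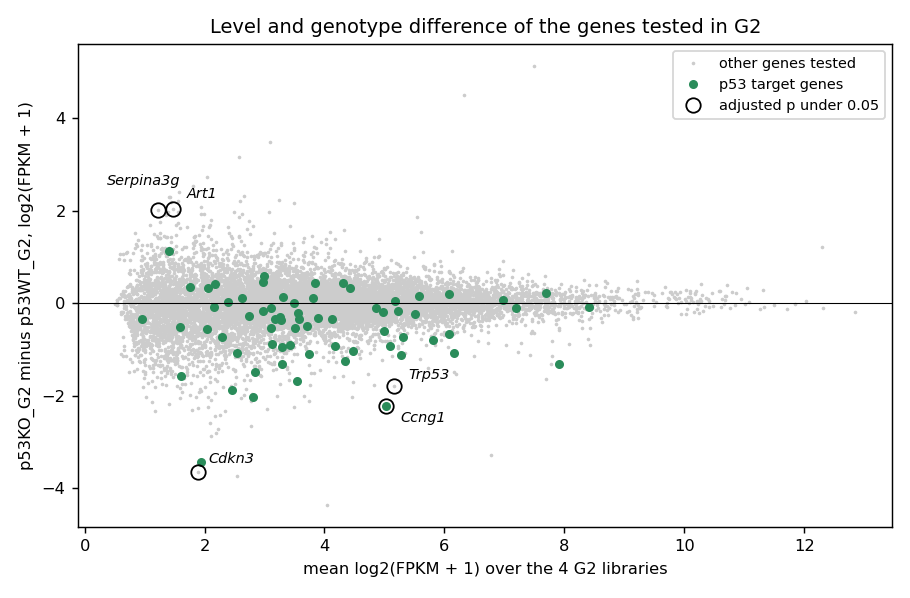
Each point is a gene tested in G2, at its mean log2(FPKM + 1) over the 4 G2 libraries (x axis) and its fitted p53KO_G2 minus p53WT_G2 difference in log2(FPKM + 1) (y axis). Green points are p53 target genes and rings mark an adjusted p under 0.05; the 62 genes listed at 0 in both libraries of a genotype, Snora33, Ccl19 and Cd7 among them, are not drawn. Ccng1 and Trp53 lie at -2.22 and -1.78, and 49 of the 68 p53 targets tested, Dcxr (not drawn) included, lie below 0.

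Did the genes that p53 switches on lie lower? A list of 76 p53 target genes held 73 that are in the files and 68 that were tested. Of these 1, Ccng1, was called lower and 0 higher. By limma's unadjusted p 18 lay lower and 1 higher. The knockout libraries lay below both p53WT_G2 libraries in 27 of the 68 (39.7%) and above both in 7 (10.3%). Over all genes tested these shares were 16.3% and 16%. The median difference of the targets was -0.34, and 49 of 68 were below 0. Against the p53WT_G2 mean the median was -0.52 in p53KO_G2 replicate 1 and -0.23 in replicate 2. These are also the medians when the other p53KO_G2 library is left out. The targets that passed the FPKM filter include some that passed through p53WT_G2 only, such as Cd80 and Dcxr, so these counts describe the tested targets and not all p53 targets.

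**Figure D2:**
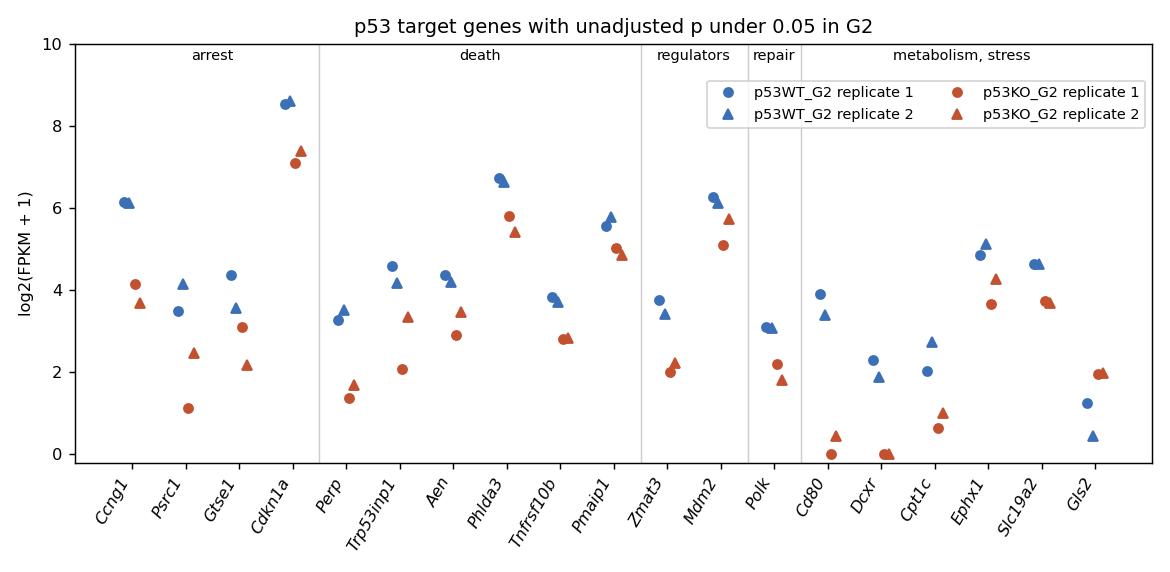
The 19 p53 target genes with an unadjusted p under 0.05 in G2, grouped by role along the x axis, with log2(FPKM + 1) of each library on the y axis (blue p53WT_G2, orange p53KO_G2, circles replicate 1, triangles replicate 2). In 18 genes both p53KO_G2 libraries lie below both p53WT_G2 libraries, and in Gls2 they lie above.

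Targets that stop the cell cycle were led by Ccng1 (chr11:40748552-40755286), a cyclin that p53 induces and that feeds back on p53 through Mdm2. It stood at 70.2 and 68.7 FPKM in p53WT_G2 and at 16.9 and 11.8 in p53KO_G2. The groups do not overlap, and the p53WT_G2 values lay closer together than the p53KO_G2 values. The knockout mean was 20.7% of the wild-type mean (14.4 ± 3.60 against 69.5 ± 1.05, n = 2 each), so Ccng1 fell by 2.22 (SE 0.31, limma adjusted p = 0.011). The adjusted p is 0.254 with only the 4 G2 libraries in the fit and 0.0854 with the 10 hind limb libraries. It is 0.171 under the replicate block, and the call is kept without p53KO_G2 replicate 1 and lost without any other G2 library (0.0817 to 0.165).

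Cdkn1a codes p21, the inhibitor of cyclin-dependent kinases through which p53 halts cells in G1. It stood at 369 and 388 FPKM in p53WT_G2 and at 137 and 168 in p53KO_G2. The groups do not overlap and the knockout mean was 40.3% of the wild-type mean, but the difference of -1.31 (SE 0.35) did not pass (adjusted p = 0.443). Psrc1, a spindle protein that p53 regulates, stood at 10.2 and 16.8 against 1.19 and 4.51. Gtse1, a microtubule-binding protein that restrains p53, stood at 19.6 and 10.8 against 7.62 and 3.50. Neither passed, and the gap between the p53KO_G2 libraries was over 2-fold in both genes.

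The fifth arrest target to lie lower without overlap was Btg2, an antiproliferative gene, at 41.4 and 51.2 FPKM against 14.1 and 39.3. Others did not lie lower without overlap. Plk2, a polo-like kinase that p53 induces, was at 119 and 123 FPKM against 130.1 and 127, and Gadd45a, a stress sensor of the DNA damage response, at 146 and 157 against 107 and 182. Ier3 stood at 68.6 and 55.9 against 73.3 and 69.6. Of the 13 arrest targets tested, 5 lay lower without overlap (38.5%) and 2 higher (15.4%), against 16.3% and 16% of all genes. Their median was -0.27. That median was -0.51 in p53KO_G2 replicate 1 and -0.03 in replicate 2.

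Targets that promote cell death lay lower in both knockout libraries. Of 16 tested, 9 lay lower without overlap (56.2%) and 1, Bid, higher (6.25%), against 16.3% and 16% of all genes. The median was -0.64, and 0 were called. By p53KO_G2 library their median was -0.67 and -0.81, beside -0.51 and -0.03 for the arrest targets. Whether the groups of targets differ from each other was not tested. In each library 12 of the 16 (75%) lay below both p53WT_G2 values, as did 38.2% of all genes in p53KO_G2 replicate 1 and 34.1% in replicate 2.

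Perp, a membrane protein of p53-driven death, stood at 8.69 and 10.5 FPKM against 1.58 and 2.24, a knockout mean of 19.97% of the wild type. Trp53inp1, a nuclear protein that p53 induces, stood at 23.1 and 17.1 against 3.23 and 9.15. Phlda3, which restrains Akt, stood at 105 and 99.2 against 55.2 and 41.8. In each of these genes the knockout libraries lie below the wild type, and in Trp53inp1 the knockout libraries differ from each other by more than the wild type does. Tnfrsf10b, the death receptor for TRAIL, stood at 13.4 and 12.0 against 6.04 and 6.15, the closest pair of p53KO_G2 values among these genes. Aen, a nuclease of apoptosis, stood at 19.6 and 17.3 against 6.51 and 10.1. Pmaip1, which codes Noxa, stood at 46.7 and 53.7 against 31.4 and 28.2. None of these passed (limma adjusted p = 0.565 to 0.888).

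The BH3-only and pore genes gave a less even picture. Bax, the pore-forming effector, stood at 71.7 and 99.1 FPKM against 67.9 and 41.2, and Bbc3, which codes Puma, at 12.2 and 7.49 against 5.86 and 9.80, with the groups overlapping. Fas, a death receptor, stood at 56.6 and 25.9 against 31.3 and 19.6, and the p53WT_G2 libraries alone differ by over 2-fold. Among 20 genes of the Bcl2 family and caspases outside the target list, 1 lay lower and 1 higher without overlap. These are 5% each, against 16.3% and 16% of all genes, and the median was -0.10.

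Of 8 tested targets that regulate p53 itself, 2, Mdm2 and Zmat3, lay lower without overlap (25%, against 16.3% of all genes). The number that lay higher was 0, against 16% of all genes, and the list median was -0.10. Mdm2 stood at 76.8 and 68.7 FPKM against 33.3 and 52.2, and Zmat3, an RNA-binding target, at 12.5 and 9.65 against 3.00 and 3.65. Zmat3 had a knockout mean of 29.9% of the wild type (difference -1.48, SE 0.32, adjusted p = 0.16). The remaining 6 of 8 tested overlapped between genotypes, among them Mdm4, the partner of Mdm2, at 15.2 and 15.9 against 8.28 and 18.3, and the phosphatase Ppm1d at 11.3 and 13.7 against 16.4 and 11.1.

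Among 10 repair targets 3 lay lower without overlap (30%, against 16.3% of all genes) and 0 higher. Polk, a translesion polymerase, stood at 7.53 and 7.48 FPKM against 3.58 and 2.53, and Ercc5, an excision repair nuclease, at 9.62 and 9.18 against 5.83 and 6.49. Polh, another translesion polymerase, stood at 12.40 and 12.38 against 11.1 and 8.26. The excision repair sensors overlapped: Xpc stood at 5.86 and 2.89 against 2.72 and 6.54, and Ddb2 at 3.17 and 2.11 against 0 and 5.29. None was called, and the list median was -0.43 (-0.54 in p53KO_G2 replicate 1 and -0.18 in replicate 2). In replicate 1, 7 of the 10 lay below both p53WT_G2 libraries (70%, against 38.2% of all genes) and 1 above (10%, against 37.7%). In replicate 2, 4 lay below and 4 above (40% each, against 34.1% and 35%).

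Among 21 targets of metabolism, autophagy and stress 8 lay lower without overlap (38.1%, against 16.3% of all genes) and 4 higher (19%, near the 16% of all genes), with a median of -0.21. The median was -0.10 without p53WT_G2 replicate 1 and -0.43 without replicate 2. Cd80, a costimulatory ligand of T cells, stood at 14.1 and 9.48 FPKM in p53WT_G2 and at 0 and 0.354 in p53KO_G2 (adjusted p = 0.0529), and was called in 4 of 17 alternatives. Dcxr, a xylulose reductase, stood at 3.95 and 2.72 and was listed at 0 in both p53KO_G2 libraries. The thiamine transporter Slc19a2 stood at 23.9 and 23.8 against 12.4 and 11.9, and the epoxide hydrolase Ephx1 at 28.2 and 33.9 against 11.8 and 18.3.

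On the higher side, Gls2, a mitochondrial glutaminase, stood at 1.37 and 0.371 FPKM against 2.91 and 2.98, and Prkab1, a subunit of AMP kinase, at 16.7 and 15.4 against 21.3 and 22.8. Neither passed. Cd82, a membrane tetraspanin, stood at 341 and 354 against 311 and 351. Rps27l, a ribosomal protein gene that p53 induces and that sits in the ribosomal list here, stood at 481 and 423 against 349.5 and 334. Of the 52 ribosomal protein genes tested, 19 lay higher (36.5%) and 2 lower (3.85%) without overlap, against 16% and 16.3% of all genes. Rps27l is 1 of the 2 lower. By library 43 of the 52 lay above both p53WT_G2 libraries in p53KO_G2 replicate 1 (82.7%, against 37.7% of all genes; median 0.23) and 21 in replicate 2 (40.4%, against 35%; median 0.02).

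Promoter sequence was read for the targets because Ccng1 and Cdkn1a lie among the genes with lower transcript. The windows, from RefSeq on GRCm38.p6, run from 250 bases before each start to 50 after it. They were searched for the p53 response element: paired half-sites of 10 bases with 0 to 13 bases between them, the central C and G of each half-site intact and at most 2 mismatches elsewhere. The element reads alike on both strands, so each match counts once. The stretches with the match in capitals, 5′ to 3′ on the strand of the gene, are:
Ccng1, chr11:40755422-40755521, minus strand: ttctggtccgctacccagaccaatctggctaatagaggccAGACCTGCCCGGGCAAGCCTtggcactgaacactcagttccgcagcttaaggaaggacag
Cdkn1a, chr17:29090888-29090978, plus strand: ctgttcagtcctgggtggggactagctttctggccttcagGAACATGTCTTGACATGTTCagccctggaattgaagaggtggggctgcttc
Both matches have 1 mismatch and no bases between the half-sites, at 195 and 51 bases before the start. In Cdkn1a another match, given next, ends in the first of these half-sites.

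Matches were found in 10 of the 54 tested targets with a promoter in the table (18.5%), against 4.58% of the 8965 tested genes with one. At no more than 1 mismatch the counts were 4 of 54 (7.41%) and 0.58%. The targets with an unadjusted p under 0.05 and a lower value had a match in 4 of 13 with a promoter (30.8%). The closest match in each of these 4, and those of Pml and Sesn1, which hold a match and did not lie lower, follow with half-sites in capitals and the bases between them in lower case:
Cdkn1a, chr17:29090906-29090937, plus strand: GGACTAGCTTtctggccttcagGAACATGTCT
Ccng1, chr11:40755462-40755481, minus strand: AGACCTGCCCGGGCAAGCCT
Gtse1, chr15:85859945-85859964, plus strand: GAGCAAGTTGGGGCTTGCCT
Cd80, chr16:38458822-38458841, plus strand: GAACAGGCCTGGACAAGTCA
Pml, chr9:58249921-58249947, minus strand: AGCCATGCCCgcatgccGGGCTTGTTT
Sesn1, chr10:41887253-41887275, plus strand: GCGCTTGGCCttcAAGCTTGTTT
Cdkn1a has 0 mismatches with 12 bases between the half-sites, Ccng1, Gtse1 and Pml have 1 mismatch, and Cd80 and Sesn1 have 2. Pml, a nuclear body protein, stood at 5.55 and 4.29 FPKM against 5.03 and 5.83, and Sesn1, a stress-induced sestrin, at 7.68 and 9.32 against 9.03 and 9.95. A match describes the letters only, and a promoter without one lacks these letters in this window only.

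How did the same targets stand at the other suffixes? With no suffix the median difference of the 68 targets was 0.05 and 0 were called, where 1 gene of all tested (0.00855%), Trp53, was called. In 3dai the median was -0.60, with 7 targets called lower, where 8 genes of all tested (0.0684%) were called lower, the other being Trp53. The p53KO_3dai libraries were not alike: their mean log2(FPKM + 1) over the targets was 3.45, 2.81 and 2.77, and small RNA names made up 4.00%, 12.3% and 12.9% of their FPKM (2.73% to 5.08% in all others), whose part in the 3dai difference was not tested. The libraries of the 3 suffixes are separate, but the spread was estimated over all of them. All 7 targets called in 3dai (Ccng1, Cdkn1a, Phlda3, Pmaip1, Trp53inp1, Slc19a2 and Ephx1) lay lower without overlap in G2. Of the 18 targets lower at an unadjusted p under 0.05 in G2, 11 lay lower without overlap in 3dai and 1 did so with no suffix. Over all 68 targets 20 lay lower and 0 higher without overlap in 3dai, and 2 and 3 with no suffix. The share of all genes without overlap was not counted at these suffixes, so these counts cannot be called particular to the targets. At an unadjusted p under 0.05, 809 of all genes lay lower and 272 higher in 3dai, and 140 and 298 with no suffix. Plk2, Ddit4 and Gdf15 had differences of -1.79, -2.38 and -2.53 in 3dai and 0.08, -0.175 and -0.35 in G2, none of them called. The p53WT_G2 libraries had a mean log2(FPKM + 1) of 4.16 and 4.08 over the targets, against 3.335 to 3.342 with no suffix and 3.65 to 3.83 in p53WT_3dai, and p53KO_G2 stood at 3.50 and 3.71.

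**Figure D3:**
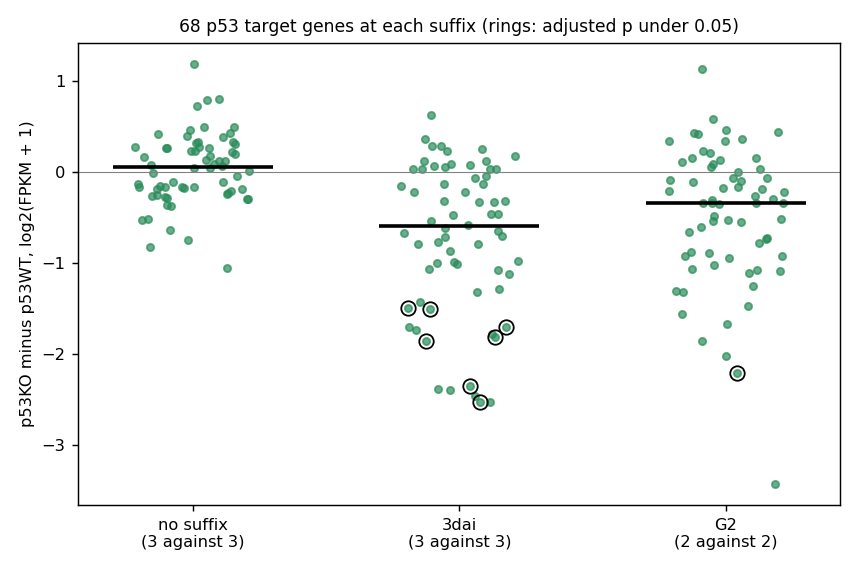
Differences (p53KO minus p53WT, log2(FPKM + 1), y axis) of the p53 target genes at each suffix (x axis), 1 point a gene, with a bar at the median of all 68. Genes listed at 0 in all libraries of a genotype at that suffix are not drawn (3, 2 and 1); rings mark the 7 targets called in 3dai and the 1 called in G2, and the medians are 0.05, -0.60 and -0.34.

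Cdkn3 (chr14:46760541-46771525) codes a phosphatase of cyclin-dependent kinases that is made by dividing cells. It stood at 9.97 and 14.7 FPKM in p53WT_G2, was listed at 0 in p53KO_G2 replicate 1 and stood at 0.0844 in replicate 2. Cdkn3 fell by 3.66 (SE 0.39, adjusted p = 0.000582). It was called in 16 of 17 alternatives, and with only the 4 G2 libraries in the fit the adjusted p was 0.301. With no suffix it was listed at 0 in all 6 libraries, which makes the pooled spread of this gene small. In 3dai it stood at 9.05, 16.6 and 9.37 in p53WT and at 15.5, 33.4 and 19.1 in p53KO. The mean was higher with p53KO there, but the genotypes overlapped.

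The other genes of mitosis did not follow Cdkn3. Of 40 tested, 11 lay higher (27.5%) and 2 lower (5%) without overlap, against 16% and 16.3% of all genes. Cdkn3 was the 1 called, and the median was 0.28. Aurkb, a mitotic kinase, stood at 11.6 and 22.5 FPKM in p53WT_G2 and at 32.4 and 25.9 in p53KO_G2. Ccna2, a cyclin of S phase and later, stood at 48.2 and 53.5 against 85.9 and 63.3. Cdk1, which drives entry into mitosis, stood at 30.9 and 30.4 against 35.6 and 38.4. These 3 lay higher without overlap and did not pass.

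Most of the higher values came from p53KO_G2 replicate 1. In that library 31 of the 40 mitosis genes lay above both p53WT_G2 libraries (median 0.57), and in replicate 2, 13 did (median 0.00), against 37.7% and 35% of all genes. Of 42 DNA replication genes 38 and 17 did, with medians of 0.51 and 0.06. Tk1, thymidine kinase, shows this at 16.2 and 24.6 FPKM against 53.1 and 24.1, and Mcm6, of the replicative helicase, at 53.3 and 59.2 against 107.5 and 69.3. None of the replication genes was called.

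Promoters of mitosis genes often carry the CHR, the letters TTTGAA, bound by complexes that p53 acts on through p21. Searched on both strands of the same windows, it was found in 24 of 34 tested mitosis genes with a promoter in the table (70.6%), in 4 of 33 replication genes (12.1%) and in 14% of all tested genes. The motif in capitals, with 12 bases on each side, in Cdkn3 and in Cdk1 and Top2a, which were not called, reads:
Cdkn3, chr14:46760418-46760447, plus strand: ttccgcgcgtctTTCAAAgacttcctctga
Cdk1, chr10:69352966-69352995, minus strand: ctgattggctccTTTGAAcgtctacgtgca
Top2a, chr11:99024351-99024380, minus strand: ctattggtccatTTTGAAgattctcccgcc
The Cdkn3 motif lies on the other strand, as TTCAAA, 111 bases before the start. Top2a, the topoisomerase of dividing cells, stood at 87.0 and 73.3 FPKM against 120.3 and 74.9. The CHR is found beside the gene that fell and beside genes that were not called.

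Snora33 is an H/ACA small nucleolar RNA, a class that guides the change of uridine to pseudouridine. It stood at 91.6 and 167 FPKM in p53WT_G2 and was listed at 0 in both p53KO_G2 libraries and in the other 12 libraries of the series (adjusted p = 1.22e-08). In the GENCODE annotation of GRCm38 it lies at chr10:23785347-23785475, on the minus strand, inside the span of Rps12, and its 129 bases, with the ACA box in capitals 3 bases from the 3′ end, are:
Snora33: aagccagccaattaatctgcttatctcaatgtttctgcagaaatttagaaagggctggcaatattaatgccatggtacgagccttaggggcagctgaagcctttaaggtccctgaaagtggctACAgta
The deposited table gives Snora33 the locus of its host, chr10:23785183-23787209. Rps12, a ribosomal protein gene, stood at 2093 and 2072 FPKM against 1983 and 2163, with the genotypes overlapping. Snora34, another H/ACA RNA, stood at 66.4 and 97.0 and was listed at 0 in both p53KO_G2 libraries (adjusted p = 0.728), and it was called with only the 4 G2 libraries or the 10 hind limb libraries in the fit. Small nucleolar RNAs are short and share their locus with a host gene, so how FPKM were divided between them bears on these values and was not tested. Of the 11700 genes tested 50 were listed at 0 in both p53KO_G2 libraries and 12 in both p53WT_G2 libraries. Each of these passed the filter through the other genotype only. At the other suffixes, genes at 0 in all 3 libraries of a genotype and at 1 FPKM or more in at least 2 of the other ran the other way. With no suffix 18 were at 0 in p53KO and 27 in p53WT, and in 3dai 24 and 42.

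**Figure D4:**
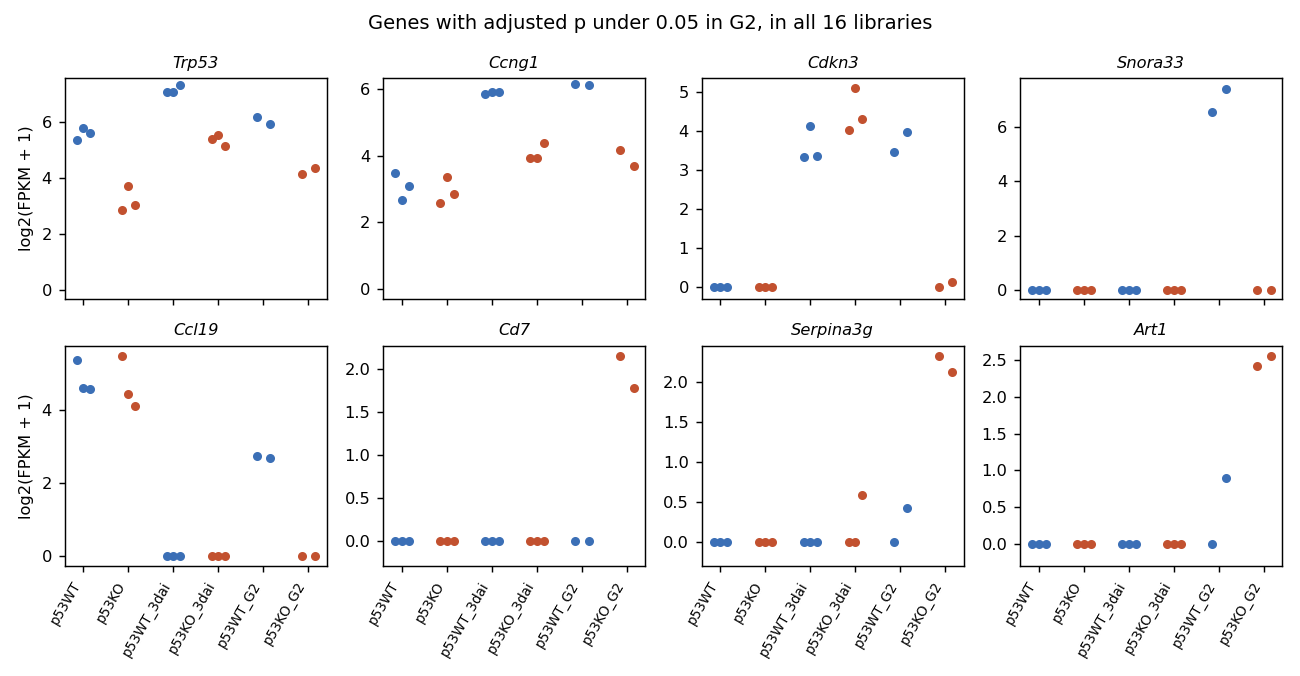
The 8 genes with an adjusted p under 0.05 in G2, 1 panel a gene, with log2(FPKM + 1) (y axis) in each of the 16 libraries by group (x axis; blue p53WT, orange p53KO). Trp53 is lower with p53KO at each suffix, Ccng1 is lower in 3dai and G2, and Snora33, Cd7 and Art1 are at 0 in the 12 libraries outside G2.

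Ccl19, a chemokine that draws lymphocytes and dendritic cells, stood at 5.65 and 5.50 FPKM in p53WT_G2 and was listed at 0 in both p53KO_G2 libraries (adjusted p = 0.0179). The call is lost with the 4 G2 libraries (adjusted p = 0.548), with the 10 hind limb libraries (0.088) and with any 1 G2 library left out (0.0833 to 0.19), and at a mean of 5 FPKM the gene is not tested. With no suffix it stood between 16.3 and 44.05 FPKM in both genotypes, and it was listed at 0 in all 6 libraries of 3dai. Mouse Ccl19 has near-identical copies in the genome, so its reads may be divided among them. Among 26 secreted inflammatory and senescence genes 12 lay lower without overlap (46.2%) and 2 higher (7.69%), against 16.3% and 16% of all genes. In each p53KO_G2 library 16 lay below both p53WT_G2 libraries (61.5%, against 38.2% and 34.1% of all genes). The median was -0.35 (-0.17 without p53WT_G2 replicate 1), and Ccl19 was the 1 called. The interleukin Il6 stood at 396 and 334 against 79.4 and 171, the chemokine Cxcl1 at 434 and 394 against 237 and 347, and the growth factor Areg at 40.01 and 31.8 against 10.5 and 21.5. In each the p53KO_G2 libraries lie below the wild type and differ from each other more than the p53WT_G2 libraries do. Igfbp4, a binding protein of insulin-like growth factors, lay the other way, at 45.9 and 47.6 against 93.1 and 61.4.

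The 3 genes that rose did so from the floor of the table. Cd7, a surface antigen of lymphocytes, was listed at 0 in both p53WT_G2 libraries and stood at 3.46 and 2.41 FPKM in p53KO_G2 (adjusted p = 0.0191). Serpina3g, a serine protease inhibitor of a family with close copies, stood at 0 and 0.34 against 4.01 and 3.36 (adjusted p = 0.031). Art1, an ADP-ribosyltransferase of muscle, stood at 0 and 0.86 against 4.33 and 4.88 (adjusted p = 0.031). Of 16 lymphocyte markers in the files Cd7 was the 1 tested. The summed level of the 16 was 0 and 2.12 in p53WT_G2 and 4.27 and 2.41 in p53KO_G2. Ptprc, Cd3d, Cd8a and Cd79a were at 0 in all 4. Cd3e stood at 2.12 in p53WT_G2 replicate 2 only, and Cd4 at 0.817 in p53KO_G2 replicate 1 only. At a mean of at least 5 FPKM Cd7, Serpina3g and Art1 are not tested. All 3 lose the call with the 4 G2 libraries (adjusted p = 0.899 to 0.927), the 10 hind limb libraries, the replicate block and a pseudocount of 0.1. With 1 G2 library left out Cd7 keeps it only without p53KO_G2 replicate 2, Art1 only without p53WT_G2 replicate 2, and Serpina3g in no case.

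Beyond the calls, 114 genes lay lower and 103 higher at an unadjusted p under 0.05, without overlap and with a mean of at least 10 FPKM in the higher group. Among the largest on the lower side, Serpine2, a protease inhibitor of the matrix, stood at 53.1 and 35.1 FPKM against 11.8 and 8.29 (difference -2.02, adjusted p = 0.157). Taco1, a translational activator of mitochondria, stood at 11.2 and 11.9 against 2.87 and 1.61 (-1.98, adjusted p = 0.182). The groups lie apart in both genes. Others had a p53KO_G2 library at 0 and the other above it: Wfdc1 stood at 9.92 and 12.6 against 0 and 1.99, and the checkpoint clamp gene Rad1 at 11.1 and 9.08 against 3.35 and 0.

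On the higher side, Tcap, a protein of the muscle Z-disc, stood at 1.66 and 2.04 FPKM against 14.8 and 6.85, and Mb, myoglobin, at 1.70 and 2.67 against 14.4 and 8.36. Cenpq, a kinetochore protein, stood at 13.1 and 8.43 against 44.4 and 25.5 (difference 1.59, adjusted p = 0.161), and the matrix protease Mmp9 at 5.14 and 5.10 against 17.7 and 11.3. In all 4 genes p53KO_G2 replicate 1 was the highest library. None passed (adjusted p = 0.161 to 0.888).

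No muscle identity gene was called. Of 23 stem cell identity genes tested 0 were called, and the median was -0.07. Without overlap 3 lay lower (13%) and 5 higher (21.7%), against 16.3% and 16% of all genes. The p53KO_G2 libraries went opposite ways: the median was -0.41 in replicate 1, with 15 of 23 below both p53WT_G2 libraries, and 0.14 in replicate 2, with 12 of 23 above both. Vcam1, an adhesion receptor, stood at 196 and 181 FPKM against 204 and 218, and Cdh15, M-cadherin, at 99.5 and 150.2 against 109 and 133. Among 6 inhibitors of cyclin-dependent kinases other than p21, 1 lay higher and 1 lower without overlap. These are 16.7% each, near the 16% and 16.3% of all genes. Cdkn2a stood at 76.1 and 58.7 against 96.4 and 77.3, and Cdkn2b at 14.6 and 14.0 against 11.2 and 9.66. Cdkn1b, p27, stood at 38.1 and 34.9 against 37.6 and 37.8.

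Genes of differentiation split the replicates of both genotypes. Myog, the factor that starts terminal differentiation, stood at 161.6 and 304 FPKM in p53WT_G2 and at 136 and 228.5 in p53KO_G2. Acta1, skeletal actin, stood at 289.5 and 660.1 against 168 and 392, and Ckm, muscle creatine kinase, at 11.3 and 37.9 against 10.5 and 28.3. Replicate 2 lay above replicate 1 in both genotypes in 20 of 25 differentiation genes (80%) and in 13 of 16 mature fibre genes (81.2%), against 27.4% of all genes. The genotype difference was below 0 in 20 of the 25 and 13 of the 16, against 5936 of the 11700 genes tested. The genotype medians were -0.26 and -0.40 with 0 called, and by library they were -0.78 and -0.98 in p53KO_G2 replicate 1 and 0.07 and 0.12 in replicate 2. Without p53WT_G2 replicate 2 they were 0.12 and 0.23. Heat shock genes ran the other way, with replicate 2 below replicate 1 in both genotypes in 13 of 16 (81.2%) against 23.9% of all genes.

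**Figure D5:**
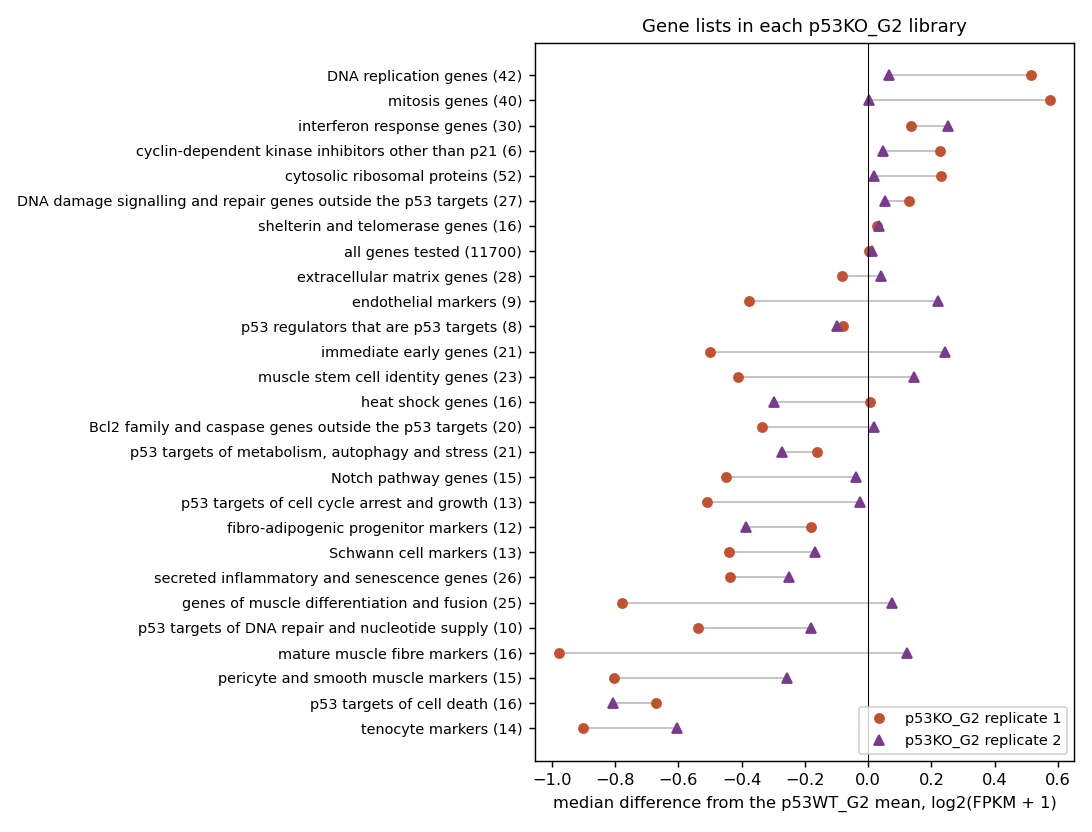
Median difference of each gene list (y axis, number of genes tested in brackets) from the p53WT_G2 mean in log2(FPKM + 1) (x axis), with a circle for p53KO_G2 replicate 1 and a triangle for replicate 2. Death targets (-0.67 and -0.81) and tenocyte markers (-0.90 and -0.61) are low in both libraries, while mitosis genes (0.57 and 0.00) and mature fibre markers (-0.98 and 0.12) are apart from 0 mainly in replicate 1.

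Among markers of other cell types, 64.3% of the tenocyte list and 46.7% of the pericyte list lay lower without overlap, against 16.3% of all genes tested, with 0 called. In bulk samples fewer cells of a type and less RNA per cell cannot be told apart. Tenocyte markers summed to 976 and 991 FPKM in p53WT_G2 and to 618 and 753 in p53KO_G2, and 9 of 14 tested lay lower without overlap (64.3%), 0 higher and 0 called, with a median of -0.85. That median is -0.39 at a mean of at least 5 FPKM and -0.61 without p53KO_G2 replicate 1. Fmod, a collagen-binding proteoglycan of tendon, stood at 73.3 and 72.0 against 34.1 and 28.1, and Col11a1, a fibrillar collagen, at 9.22 and 7.20 against 4.04 and 2.29. Scx, the transcription factor that defines tendon, overlapped, at 25.5 and 37.3 against 18.1 and 31.0.

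Pericyte and smooth muscle markers summed to 1593 and 1816 FPKM against 1163 and 1566, with 7 of 15 lower without overlap (46.7%), 0 higher and a median of -0.53. Rgs5, a regulator of G protein signalling in pericytes, stood at 104 and 137 against 28.0 and 62.4, and Myh11, smooth muscle myosin, at 86.7 and 97.3 against 23.2 and 95.4. In p53KO_G2 replicate 1, 13 of the 15 lay below both wild-type libraries (86.7%, against 38.2% of all genes), and in replicate 2, 8 did (53.3%, against 34.1%). The median was -0.26 without p53KO_G2 replicate 1 and -0.30 without p53WT_G2 replicate 2. Fibro-adipogenic markers summed to 672 and 678 against 585 and 484, with 4 of 12 lower (33.3%) and 1 higher (8.33%) without overlap. Schwann cell markers summed to 280.3 and 274 against 239 and 257, with 5 of 13 lower (38.5%) and 1 higher (7.69%). Over all genes these shares were 16.3% and 16%. Endothelial markers summed to 62.7 and 54.0 against 42.2 and 62.4.

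Blood cell markers were near the floor. Macrophage markers summed to 18.3 and 27.6 FPKM against 18.9 and 7.88. Csf1r and Adgre1 were at 0 in all 4, while Lyz2 stood at 7.72 and 10.55 against 14.59 and 0. Cd14 stood at 5.41 and 6.90 against 4.33 and 3.27. Neutrophil markers summed to 0 in each library. The red cell markers summed to 19.6 and 8.20 against 1.52 and 0. Of these Hbb-b1, a haemoglobin chain, stood at 13.7 and 8.19 against 1.52 and 0. The part of these cell types in the differences of the p53 targets and secreted genes was not tested.

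Was the genotype difference in G2 unlike that at the other suffixes? By the interaction test 3 genes were called against the libraries with no suffix (0.0256% of those tested), Snora33, Cdkn3 and Taco1, each lower in G2. Against 3dai 2 were called (0.0171%), Snora33 and Cdkn3. Taco1 was listed at 0 in p53WT with no suffix and stood at 2.54, 1.32 and 2.76 FPKM in p53KO, so its genotype order is the other way round in G2. For Ccng1 the interaction with no suffix was -2.05 (SE 0.40, adjusted p = 0.233) and with 3dai -0.41 (adjusted p = 0.945). For Cdkn1a it was -0.93 (adjusted p = 1.00) and 0.39 (adjusted p = 0.952). A difference between suffixes was thus not called for these targets, which does not show that they responded alike.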

How the data were processed

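RNA of sorted muscle cells was read from 16 deposited files, 1 a library. The values are FPKM made by the authors. The submitters' processing notes name STAR, Cufflinks and Cuffdiff and the build mm10, with versions not given in the sources used here. The kit was NEBNext Ultra II Directional, per the labels' protocols. The confidence limits in the files were not used, and depth is unknown, so no counting interval is given. FPKM are scaled to library size, so a few strong genes can shift the others. Their sum was not the same in each library, and in G2 it ran from 482451 to 525970. An exact 0 may be a failed estimate, so no fold is given against a group listed at 0.

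FPKM were taken to log2(FPKM + 1), a scale that understates changes of low genes. Genes at 1 FPKM or more in 2 of the 4 G2 libraries were kept. One limma fit (version 3.58.1, R 4.3.3) covered the 6 groups, with trended variance and no covariate, which leaves 10 residual degrees of freedom, and p-values were adjusted by Benjamini-Hochberg over the 11700 genes at a limit of 0.05. An interaction is the genotype difference in G2 minus that at the other suffix. The steps were tested on simulated data.

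The 31 gene lists, their members and the tests were chosen with earlier results of these data known. Genes were named by rule: Trp53 and the sort genes, every called gene, the 12 largest differences in each direction (unadjusted p under 0.05, no overlap, a mean of 10 FPKM, no small RNA or unnamed locus), the p53 targets whose unadjusted p was under 0.05, the 3 smallest p in each direction of each list, and called interactions with the next 5. Genes given outside it, such as Pax7, Myf5, Myog, Acta1, Ckm, Il6, Cxcl1, Areg, Rgs5, Scx, Cdh15, Cdkn1b, Fos, Rps12, Snora34, Ddit4, Gdf15, Cdk1 and Top2a, and other p53 targets, were chosen after their values were seen. Alternatives were another pseudocount, 3 other filters, 2 other scalings, small RNA names left out, fewer libraries in the fit, array weights, a robust fit, the replicate block, status other than OK set to missing and each G2 library left out. Promoters came from RefSeq (GRCm38.p6, the build of mm10). The 4 remaining groups were used for the spread, the interactions and the levels at the other suffixes. Results of some genes are not reported here.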

Additional observations from a re-analysis of the deposited data

Results flagged for a closer look

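In 3 genes the difference between p53KO and p53WT was itself different in G2 from that at another suffix, by limma's interaction test adjusted over all genes tested. Snora33 had an adjusted p of 5.235e-07 against the libraries with no suffix and 5.235e-07 against 3dai, where it is listed at 0 in all 12 libraries. Cdkn3 had an adjusted p of 0.01475 against no suffix, where it is listed at 0 in all 6 libraries, and 0.0009892 against 3dai, where both genotypes express it. Taco1 had an adjusted p of 0.03934 against no suffix. In each of the 3 genes the pooled spread includes groups listed wholly at 0.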

How the results depend on the processing

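The G2 count of 8 calls became 15 with no filter, 4 at a mean of 5 FPKM, 2 with only the 4 G2 libraries, 5 with the 10 hind limb libraries, 5 with array weights and 4 with the replicate block, and 3 to 4 with 1 G2 library left out. Snora33 and Cdkn3 kept the call with each library left out. The interaction with no suffix (3 calls) gave 5 at a pseudocount of 0.1, 9 with no filter, 1 without small RNA names, 5 with the 10 hind limb libraries and 1 to 2 with a library left out. The interaction with 3dai (2 calls) gave 4, 9 and 1 under the first 3 of these and 2 to 4 with a library left out. The median of the p53 targets (-0.34) stayed below 0 in all 17 alternatives and ran from -0.5163 without p53KO_G2 replicate 2 to -0.2334 without p53KO_G2 replicate 1. The median of Bcl2 family and caspase genes (-0.10) ran from -0.3347 without p53KO_G2 replicate 2 to 0.01722 without replicate 1. Over the 8 called genes 47 of 131 alternative values lost the call. The alternatives were followed for 46 genes: the called genes, the largest differences and the p53 targets with an unadjusted p under 0.05. Of these 46, Cd80 gained the call in 4 alternatives and 0 changed sign. Sign was not followed for genes named outside the 46. Snora34, outside them, was called with the 4 G2 libraries, with the 10 hind limb libraries and under the replicate block. Same-numbered G2 libraries deviated together with a correlation of 0.0446 over 2 pairs, and the main fit did not pair the samples by number. Some lists did share an order by number. Replicate 2 lay above replicate 1 in both genotypes in 20 of 25 differentiation genes, and below it in 13 of 16 heat shock genes. Whether the numbers pair the samples was not tested further. Under the replicate block Ccl19, Cdkn3 and Snora33 kept the call. With 2 libraries a group and unknown depth, genes near 1 FPKM and those listed at 0 are the least certain.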

Other observations

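Interferon response genes showed no direction that held with each library left out. Of 30 tested, 9 lay higher (30%) and 2 lower (6.67%) without overlap, against 16% and 16.3% of all genes, and 0 were called. The median was 0.12 (0.14 and 0.25 by p53KO_G2 library), which became -0.07 without p53WT_G2 replicate 2. In p53KO_G2 replicate 1, 12 lay above and 11 below both p53WT_G2 libraries (40% and 36.7%), near the 37.7% and 38.2% of all genes. In p53KO_G2 replicate 2, 18 lay above (60%, against 35% of all genes) and 4 below (13.3%, against 34.1%). Usp18, which limits interferon signalling, stood at 0.642 and 0.303 FPKM in p53WT_G2 and at 2.62 and 3.25 in p53KO_G2. Psmb8, a subunit of the immunoproteasome, stood at 13.3 and 8.74 against 21.8 and 23.4, and Xaf1, an interferon-induced gene of cell death, at 4.35 and 4.99 against 5.87 and 22.8. In Xaf1 the distance comes from p53KO_G2 replicate 2.

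Notch pathway genes had 5 of 15 lower (33.3%) and 2 higher (13.3%) without overlap, against 16.3% and 16% of all genes. Their median was -0.30 (-0.45 and -0.04 by library), with 0 called. The ligand Jag2 stood at 5.96 and 6.84 FPKM against 3.29 and 3.41, and Nrarp, a feedback target of Notch, at 23.9 and 28.2 against 10.1 and 16.3. Immediate early genes divided the knockout libraries: 16 of 21 lay below both p53WT_G2 libraries in replicate 1 (76.2%, against 38.2% of all genes) and 3 did in replicate 2 (14.3%, against 34.1%), where 12 lay above both (57.1%, against 35%). Fos stood at 218 and 340.5 against 163 and 408.5. Genes of DNA damage signalling outside the p53 targets (27 tested, median 0.09) and of shelterin and telomerase (16 tested, median 0.06) had 0 called, and extracellular matrix genes (28 tested, median -0.03) and adipocyte markers (3 tested, median 0.03) likewise.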
